A study of Homo sapiens with 4 samples.

Results

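The comparison described here is that of LX-2 cells given transforming growth factor β (TGF-β) with LX-2 cells that received none, each as 1 RNA sequencing library. It covers every gene with at least 1 scaled count per 1000000 counts (CPM) in either library, which were 15356 of the 63241 genes in the count table. LX-2 is an immortalised human line, derived from hepatic stellate cells, that grows in low serum, so both libraries come from the same line and not from separate donors. Both cultures were starved in medium with 0.5% serum for 24 h. The treated culture then received TGF-β at 20 ng/mL for 24 h, and the control received no TGF-β. The label of the treated library names DMSO and that of the control does not. Whether the control received vehicle, or was collected at the same time, was not given in the sources used here, so TGF-β and vehicle cannot be told apart. The series holds 4 libraries, and the other 2, which also received a compound, are used here for scaling alone.

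TGF-β is secreted in a latent form that is tethered to matrix, and integrins, proteases and thrombospondin release it. The active ligand brings together type I and type II receptor kinases, which phosphorylate SMAD2 and SMAD3. These enter the nucleus with SMAD4, where they act beside factors such as AP-1 and TEAD proteins, and they induce their own inhibitors. In the injured liver, TGF-β is the main signal by which stellate cells lose their stored vitamin A and fat, become myofibroblasts and deposit scar collagen.

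Each gene is given as its CPM in the control and then with TGF-β, and as the ratio of the libraries with a 95% conditional exact (Clopper-Pearson) interval in brackets. "Rose" and "fell" are used of genes at least 2-fold apart whose interval excluded 1. With 1 library a group there is no replicate check, no test was run, and intervals cover counting error only. The number of genes called in a list is to be read beside the shares of all genes, 5.24% higher and 4.36% lower. List medians are of log2 ratios with 2 counts added. Deposited FPKM values, which are per gene length, are used where the levels of different genes are compared. Whether that length matches the transcripts in these cells was not tested, so such comparisons are approximate.

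The libraries held 22503094 counts (control) and 21860122 counts (TGF-β), and 3 counts corresponded to 0.126 and 0.136 CPM. Markers of the line were checked in both. Of 22 stellate and mesenchymal markers, 17 reached 1 CPM in either library, with vimentin (VIM) at 3290 and 3551 CPM. Decorin (DCN) and desmin (DES) had 0 counts in both, and lumican (LUM) had 8 and 3 and biglycan (BGN) 2 and 3 counts. The storage enzyme gene LRAT also had 0 counts in both. Of 23 hepatocyte markers, 12 had 0 counts in both libraries and 3 reached 1 CPM. Albumin (ALB) had 2 and 4 counts. Of 21 macrophage and leukocyte markers, 11 had 0 counts in both, and their summed level was 37.9 and 25.3 CPM.

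Across the 15356 genes, 805 rose (5.24%) and 669 fell (4.36%), so 9.6% were called in either direction. The median log2 ratio was -0.01, and 5% of genes lay below -0.90 and 5% above 1.001. Within 1.5-fold of the control were 12094 genes (78.8%). The depth was such that 7405 genes had an interval excluding 1 at less than 2-fold, and 9 genes were 2-fold apart with an interval that included 1. The genes that rose together went from 27494 to 87724 CPM and those that fell from 17822 to 6673 CPM. By the mean CPM of both libraries, 9 of the 56 genes at 1000 CPM or more rose (16.1%) and 0 fell. Of the 416 genes with a mean of 300 to 1000 CPM, 23 rose and 3 fell, and of the 2146 with a mean of 1 to 3 CPM, 9.27% rose and 9.88% fell. These shares are a description with no test. Fibronectin (FN1) added 9140 CPM and the collagen gene COL1A1 added 2630 CPM. Of the called genes, 309 had exon bases in common with a same-strand neighbour, and 165 lost the call after the neighbours' counts were added.

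**Figure D1:**
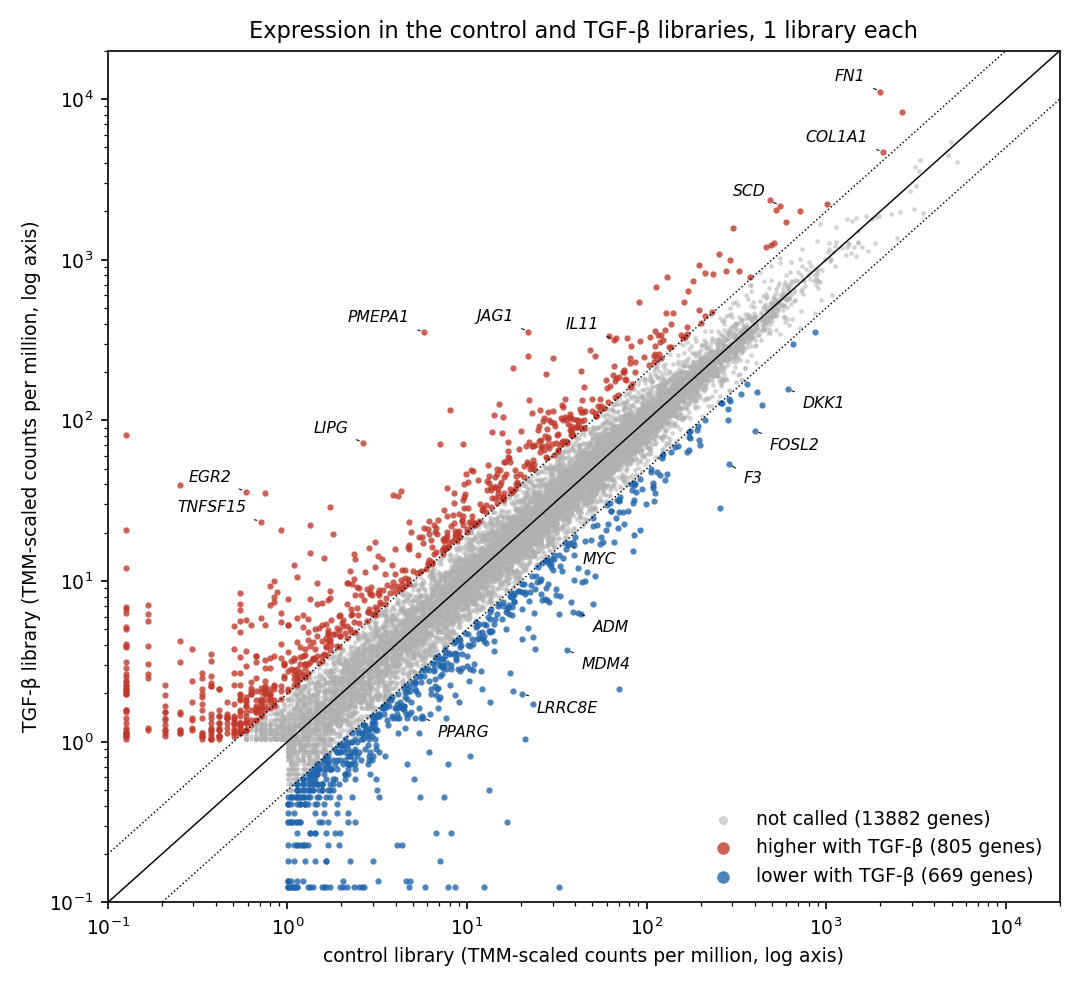
Each point is 1 of the 15356 genes, at its CPM (TMM-scaled) in the control (x axis, log) and with TGF-β (y axis, log). Genes at 0 counts are drawn at the control's floor of 3 counts, the solid line marks equal levels and the dotted lines a 2-fold difference. The 805 genes that rose include some at the top right, such as FN1. At least 10 CPM in either library was reached by 387 of these 805 and by 224 of the 669 that fell.

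**Figure D2:**
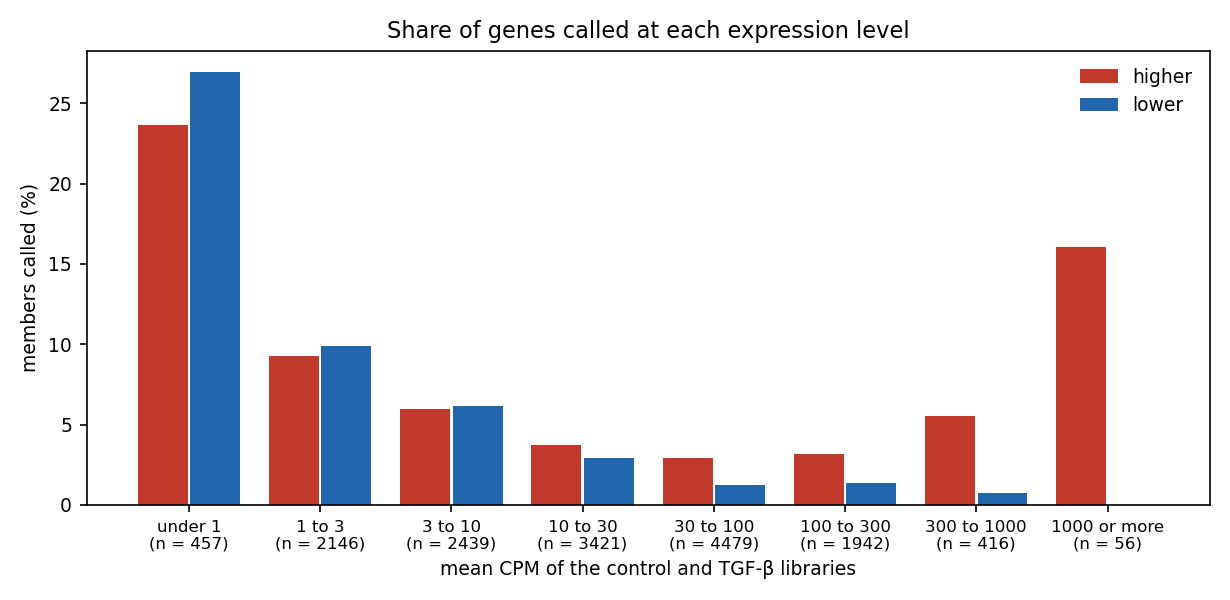
Bars give the percentage of genes that rose (red) and fell (blue) in each band of expression, set by the mean CPM of both libraries. The share that rose is 16.1% of 56 genes at 1000 CPM or more and the share that fell is 0 there, while genes with a mean under 1 CPM are in the plot only if 1 library reached 1 CPM, so both shares are high in that band.

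Among ligands, latency proteins and receptors of the TGF-β family, 5 of 29 measured genes rose and 2 fell, with a median log2 ratio of 0.31 against -0.01 for all genes. The ligand gene TGFB1 itself rose from 213 to 827 CPM, which was 3.89-fold (3.77 to 4.01). TGFB2 stood at 88.4 and 133 CPM and TGFB3 at 2.303 and 3.03 CPM, so neither reached the 2-fold rule and TGFB1 was the most abundant of the 3 per length in both libraries, at 53.7 and 199 FPKM. LTBP2, a matrix protein of the latent TGF-β binding family, rose from 18.01 to 212 CPM, or 11.8-fold (10.7 to 13.01). LRRC32, which holds latent TGF-β at the cell surface, rose from 1.55 to 4.21 CPM, and THBS1, a thrombospondin that can activate it, rose from 524 to 2035 CPM, or 3.88-fold. INHBA, the subunit of activin A, rose 2.12-fold (1.94 to 2.31). Neither type of receptor kinase gene met the 2-fold rule. TGFBR1 stood at 63.2 and 52.9 CPM and TGFBR2 at 123 and 153 CPM, with ratios of 0.836 (0.774 to 0.903) and 1.24 (1.18 to 1.31). The co-receptor gene TGFBR3 (betaglycan) fell from 17.2 to 7.07 CPM, or 2.44-fold (2.02 to 2.95). Myostatin (MSTN), a family member best known as a brake on muscle growth, fell from 177 to 10 counts, or 16.4-fold (8.69 to 34.7).

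SMADs and the negative feedback on them had 6 of 23 higher and 2 lower (median 0.32). PMEPA1, a membrane protein that sequesters SMAD2 and SMAD3, lies at chr20:57648392-57711536 (GRCh38, GENCODE 29, minus strand). It had 138 and 7832 counts and rose 61.4-fold (51.9 to 73.2). SMAD7, the inhibitory SMAD that recruits ubiquitin ligases to the receptor, rose from 25.1 to 92.9 CPM, or 3.71-fold (3.38 to 4.07). SKIL, a SMAD co-repressor, rose 2.92-fold (2.66 to 3.203), LDLRAD4, a relative of PMEPA1, 2.495-fold (2.09 to 2.995), and the docking protein gene NEDD9 2.97-fold (2.73 to 3.24). BHLHE40, a transcriptional repressor also tied to the circadian clock, rose from 130.3 to 786 CPM, or 6.03-fold (5.81 to 6.27). The transducing SMADs stayed close to the control, with SMAD2 at 92.7 and 86.6 CPM, SMAD3 at 221 and 196 CPM and SMAD4 at 83.6 and 83.5 CPM. The co-repressor TGIF2 fell 2.26-fold and the polarity gene PARD6A, whose protein binds the type I receptor, 2.36-fold. The ligase genes SMURF1 and SMURF2 had ratios of 1.65 (1.56 to 1.74) and 1.58 (1.53 to 1.63), under the 2-fold rule.

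In the BMP branch, the arm of the family that signals through SMAD1 and SMAD5, 2 of 20 genes rose and 4 fell (median -0.12). The BMP-responsive genes ATOH8 and ID2 fell 10.8-fold (6.48 to 19.3) and 2.52-fold (2.08 to 3.07). ID1 stood at 72.7 and 44.9 CPM, a ratio of 0.618 (0.571 to 0.668) that did not reach 2-fold. Among secreted modulators, NOG (noggin) fell 2.63-fold and BMPER 3.65-fold, while gremlin (GREM1), another BMP antagonist, rose from 2.303 to 9.65 CPM, or 4.19-fold (3.101 to 5.74). The antagonists thus moved in both directions. The type II receptor gene BMPR2 rose from 128 to 466 CPM, or 3.63-fold (3.49 to 3.78), whereas BMPR1A stood at 45.98 and 39.3 CPM.

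Of 8 measured fibrillar collagen genes, 5 rose and 0 fell, and the median log2 ratio was 1.28. Per length, COL1A1 led in both libraries, from 178 to 384 FPKM, and it rose 2.27-fold (2.24 to 2.29). COL1A2, whose chain pairs with that of COL1A1 in type I collagen, also rose, 2.76-fold (2.08 to 3.68), but from 71 to 181 counts, which is from 0.203 to 0.533 FPKM. The 2 chains therefore differed by far more between themselves than between libraries. COL3A1, the other major scar collagen, stood at 6.74 and 7.38 CPM and at 0.852 and 0.888 FPKM. Type V collagen, which sets fibril diameter, was split: COL5A1 rose from 461 to 1197 CPM, or 2.599-fold (2.54 to 2.66), COL5A3 rose from 8 to 55 counts, or 7.44-fold (3.52 to 18.1), and COL5A2 stood at 745 and 758 CPM. COL27A1, a cartilage collagen, had the second largest fold of the 8, 6.11-fold (5.57 to 6.72), from 22.1 to 135 CPM.

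Of 24 basement membrane genes, 4 rose and 1 fell (median 0.46). The main type IV collagen chains rose, COL4A1 by 4.74-fold (4.59 to 4.89) and COL4A2 by 2.82-fold (2.77 to 2.87). Per length, COL4A2 stood above COL4A1 in both libraries, at 30.7 and 82.5 FPKM against 9.75 and 43.95 FPKM. COL4A6 fell 2.45-fold (1.93 to 3.13). The laminin chain gene LAMB1 rose 2.05-fold (1.98 to 2.12), a call lost under total counts, and TINAGL1, a matricellular glycoprotein, 2.28-fold (2.11 to 2.48). LAMC1 stood at 537 and 691 CPM, agrin (AGRN) at 549 and 550.2 CPM and perlecan (HSPG2) at 118 and 105 CPM. Of 12 other collagens, COL6A1, COL6A3, COL7A1, COL8A2 and COL16A1 rose and COL8A1 fell, and the calls of COL6A1 and COL16A1 were lost under total counts. COL6A3, the long chain of microfibrillar type VI collagen, rose 4.85-fold (4.56 to 5.16), COL6A1 2.004-fold (1.93 to 2.08), and COL6A2 stood at 329 and 439 CPM. COL7A1, the anchoring fibril collagen, rose from 54.8 to 136 CPM. COL12A1, a collagen on fibril surfaces, stood at 551 and 345 CPM, a ratio of 0.626 (0.609 to 0.644).

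Of 29 measured genes that hydroxylate, fold and cross-link collagen, 1 rose (3.45%, against 5.24% of all genes). It was the transglutaminase gene TGM2 (2.15-fold (2.06 to 2.25)). In this list 0 genes fell, against 4.36% of all genes, and the median was 0.08. LOX, the founding lysyl oxidase, stood at 62.9 and 95.7 CPM with a ratio of 1.52 (1.42 to 1.63), and LOXL2 at 538 and 501 CPM. The prolyl hydroxylase gene P4HA2 stood at 163 and 234 CPM, and the lysyl hydroxylase gene PLOD2, used for telopeptide cross-links, at 104 and 179 CPM. SERPINH1, the collagen chaperone HSP47, stood lower with TGF-β, at 251 and 132 CPM, a ratio of 0.528 (0.505 to 0.552) just short of the 2-fold rule. Elastic fibre genes had 2 of 16 higher, LTBP2 and fibulin-3 (EFEMP1, 2.76-fold (2.61 to 2.91)), and 1 lower, ADAMTSL4 (2.75-fold (2.26 to 3.36)). Fibrillin-1 (FBN1) stood at 268 and 424 CPM.

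Fibronectin and the matricellular glycoproteins had 10 of 24 higher and 2 lower (median 0.47). Their summed level went from 6204 to 21216 CPM, 3.42-fold, and FN1 accounted for 9140 CPM of the gain. FN1, at chr2:215360440-215436172 (minus strand), had 47779 and 245984 counts and rose 5.57-fold (5.51 to 5.62). TGFBI, an adhesion protein named for its induction by TGF-β, rose from 486 to 2347 CPM, or 4.83-fold (4.73 to 4.92). SPOCK1, a testican, rose 5.996-fold (5.73 to 6.28), AEBP1, a collagen-binding carboxypeptidase-like protein, 3.42-fold (3.33 to 3.52), and the secreted binding protein gene IGFBP7 3.79-fold (3.49 to 4.13). CCN2, connective tissue growth factor, rose from 161 to 545 CPM, while its relative CCN1 stood at 569.7 and 623 CPM. Periostin (POSTN), a myofibroblast product in many tissues, rose 12.4-fold (5.43 to 35.1) from 6 to 69 counts and remained at 0.0252 and 0.299 FPKM. SPARC and thrombospondin 2 (THBS2) stood at 640.5 and 974 CPM and 301 and 267 CPM. Matrilin-2 (MATN2) fell 2.46-fold (2.27 to 2.68) and vitronectin (VTN) 2.28-fold (1.599 to 3.301), against a rise of matrilin-3 (MATN3), 2.34-fold (2.03 to 2.697).

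**Figure D3:**
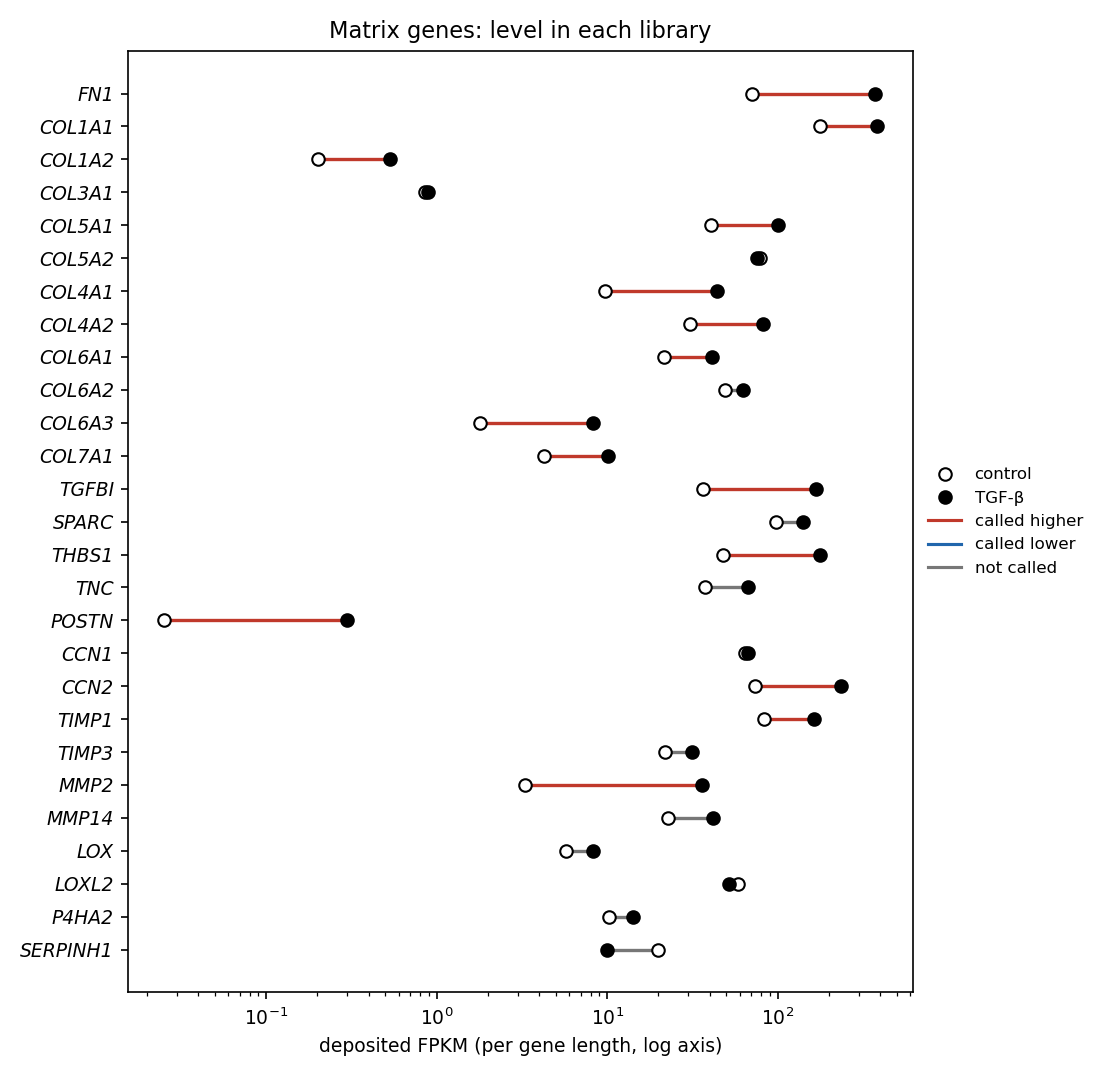
For each matrix gene the open circle is the deposited FPKM in the control and the filled circle that with TGF-β (log axis), and the line between them is red where the gene rose, blue where it fell and grey where it was not called. COL1A2 and COL3A1 lie near or under 1 FPKM beside COL1A1 at 178 and 384 FPKM.

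Proteoglycans and hyaluronan genes had 5 of 28 higher and 2 lower (median 0.37). Versican (VCAN), a large hyaluronan-binding proteoglycan, rose from 29.5 to 98.2 CPM, or 3.33-fold (3.06 to 3.63). XYLT1, which starts glycosaminoglycan chains, rose 3.701-fold (3.23 to 4.25). CEMIP, which degrades hyaluronan, rose 2.78-fold (2.47 to 3.14), and syndecan-3 (SDC3) 2.87-fold (2.65 to 3.11). TNFAIP6, which links hyaluronan to protein, went from 7 to 83 counts, or 12.8-fold (5.96 to 32.9). Serglycin (SRGN), the proteoglycan of secretory granules, fell from 264 to 128 CPM, or 2.05-fold (1.97 to 2.15), and the synthase gene HAS3 fell 2.83-fold.

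Matrix-degrading enzymes moved in both directions, with 5 of 15 metalloproteinases and inhibitors higher and 2 lower (median 0.50). MMP2, a gelatinase that also cleaves type IV collagen, rose from 21.98 to 251 CPM, or 11.4-fold (10.5 to 12.5). MMP9, the other gelatinase, rose 2.97-fold (2.55 to 3.47), MMP25 2.12-fold (1.704 to 2.65), and MMP7 from 5 to 34 counts. MMP1, a collagenase that cuts fibrillar collagen, fell from 74.1 to 26.8 CPM, or 2.77-fold (2.52 to 3.04). MMP14, which activates MMP2 at the membrane, stood at 134 and 259 CPM. The inhibitors diverged: TIMP1 rose 2.08-fold (1.997 to 2.16), a call lost when libraries were scaled by total counts, TIMP2 fell 2.19-fold (2.13 to 2.25), and TIMP3 stood at 94.7 and 143 CPM. In the ADAM and ADAMTS families 4 of 18 rose and 1 fell. The aggrecanase gene ADAMTS5 rose 8.18-fold (6.63 to 10.2), ADAM19 4.79-fold (4.54 to 5.06), and ADAMTS12 and ADAMTS7 2.07-fold and 2.09-fold, the last 2 losing the call under total counts. ADAMTS9 fell from 24 to 3 counts, 7.397-fold (2.25 to 38.4).

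The plasminogen and coagulation list had 6 of 25 higher and 3 lower (median 0.34). The urokinase gene PLAU, whose protease activates plasminogen, rose from 86.01 to 230.2 CPM, or 2.68-fold (2.54 to 2.82). SERPINE2 (protease nexin-1) rose 3.201-fold (3.06 to 3.35), and the inhibitor TFPI2 2.66-fold (2.51 to 2.82). SERPINB2, which inhibits urokinase, fell from 50.1 to 7.16 CPM, or 7.005-fold (5.93 to 8.32). The urokinase receptor gene PLAUR stood at 59.5 and 81.7 CPM and the tissue activator gene PLAT at 179 and 192 CPM. In coagulation, tissue factor (F3), which starts the extrinsic pathway, fell from 287 to 53.6 CPM, or 5.34-fold (5.02 to 5.69), and thrombomodulin (THBD) fell 2.08-fold. The protease-activated receptor gene F2RL1 rose 2.77-fold (2.17 to 3.55).

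Actomyosin and smooth muscle genes had 3 of 33 higher (9.09%, against 5.24% of all genes) and 2 lower (6.06%, against 4.36%), with a median of 0.27. Tropomyosin 1 (TPM1) rose from 602 to 1720 CPM, or 2.86-fold (2.805 to 2.91). The coactivators of serum response factor myocardin (MYOCD) and MRTFB rose 2.83-fold (2.52 to 3.19) and 2.497-fold (2.25 to 2.78). The myofibroblast marker ACTA2, smooth muscle α-actin, stood at 21.5 and 26.99 CPM with a ratio of 1.25 (1.11 to 1.41), and TAGLN, the actin-binding protein SM22, at 378 and 700.2 CPM with 1.85 (1.81 to 1.903). Enteric γ-actin (ACTG2) fell 2.53-fold (2.13 to 3.01) and SYNPO2 2.97-fold (2.13 to 4.21). MYH9, FLNA and ACTN1, the abundant non-muscle motor and cross-linkers, had ratios of 1.25, 1.21 and 1.36. ACTN4 had only 82 and 63 counts, a level whose reason was not tested.

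Integrins and focal adhesion genes had 8 of 34 higher and 0 lower (median 0.31). ITGA2, a collagen receptor chain, rose from 59.6 to 179 CPM, or 3.01-fold (2.83 to 3.196). ITGA11, another collagen receptor chain, rose 2.29-fold (1.503 to 3.55), and ITGA1 rose 2.97-fold but lost the call when summed with an overlapping gene. ITGB5 rose 2.46-fold (2.28 to 2.66), and ITGB6, whose product with the αv chain activates latent TGF-β, had 2 and 35 counts, a ratio of 18.9 (4.86 to 162). The fibronectin receptor chain ITGA5 stood at 301 and 540.2 CPM and ITGB1 at 887 and 1315 CPM. The adaptor genes FERMT1 and KANK4 rose 2.298-fold (1.95 to 2.72) and 7.301-fold (2.54 to 28.7). Of 17 intermediate filament genes 4 rose (23.5%, against 5.24% of all genes), all of them keratins, and 0 fell (against 4.36%). The median of this list was 0.55, but 0.15 among its genes with at least 5 CPM in either library. KRT81 rose from 159 to 327 CPM, a call lost under total counts, KRT17 rose 3.61-fold (2.69 to 4.895) and KRT14 5.08-fold (2.54 to 11.3). KRT16 went from 0 to 53 counts, a ratio of 19.1 with the control set to 3 counts. It was measured only through the TGF-β library. Beside these, the 15 cholangiocyte and epithelial markers had a summed level of 494 and 858 CPM, most of it from KRT18 (229.6 and 452 CPM) and KRT8 (201 and 296 CPM). None of the 6 measured met the 2-fold rule, and the defining markers EPCAM (4 and 2 counts) and CDH1 (5 and 3 counts) were near 0. The part of other cells in the keratin changes was not tested. Vimentin had a ratio of 1.08 (1.07 to 1.09). DSP, the desmosomal plaque protein to which keratins attach, rose from 30.2 to 245 CPM, or 8.11-fold (7.51 to 8.78).

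Transcription factors and cadherins of the mesenchymal state had 10 of 40 higher and 0 lower (median 0.51). SNAI1 and SNAI2, repressors of E-cadherin, rose 4.19-fold (3.41 to 5.18) and 2.24-fold (2.07 to 2.41). SOX4 rose from 25.5 to 116 CPM, or 4.53-fold (4.15 to 4.96), TBX3 2.94-fold (2.82 to 3.07), and the ETS factor ETV4 3.43-fold (3.07 to 3.84). FOXC2 rose 2.82-fold (2.43 to 3.29). FOXS1, a forkhead factor of perivascular and muscle-lineage cells, went from 1 to 268 counts, a ratio of 289.9 (51.6 to 11491). CDH11, the cadherin of activated fibroblasts, rose from 35.2 to 105 CPM, or 2.99-fold (2.76 to 3.24). N-cadherin (CDH2) stood at 257 and 436 CPM, ZEB1 at 24.5 and 46.9 CPM and RUNX1 at 110.2 and 208 CPM, all under 2-fold. Another named factor, HIC1, a zinc finger repressor, rose from 8.08 to 116 CPM, or 14.4-fold (12.4 to 16.8).

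AP-1 and immediate early genes had 8 of 35 higher and 3 lower (median 0.07). JUNB rose from 27.6 to 195 CPM, or 7.08-fold (6.52 to 7.696), while JUN stood at 403 and 401 CPM. FOSL2, a Fos-type partner of Jun proteins, fell from 402 to 85.96 CPM, or 4.67-fold (4.45 to 4.91), and FOSL1 stood at 193 and 121 CPM. The EGR zinc finger genes rose together: EGR1 2.796-fold (2.59 to 3.02), EGR3 3.18-fold (1.84 to 5.78) and EGR2, at chr10:62811996-62919900 (minus strand), from 14 to 796 counts, 61.5-fold (36.4 to 113). The small MAF genes MAFK and MAFF rose 3.68-fold (3.404 to 3.99) and 2.44-fold (2.22 to 2.68). MYC fell from 36.6 to 16.8 CPM, or 2.19-fold (1.93 to 2.48), and IER2 2.77-fold (2.56 to 2.99). Feedback on the MAP kinase pathway had 3 of 18 higher and 0 lower. The ERK phosphatase gene DUSP6 rose from 27.8 to 87.9 CPM, or 3.16-fold (2.89 to 3.45), SPRY1 from 3 to 44 counts and RASAL2 2.13-fold (1.91 to 2.38).

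YAP, TAZ, TEAD and their targets had 4 of 31 higher and 2 lower (median 0.13). The gene of TAZ (WWTR1) rose from 12.9 to 42.1 CPM, or 3.26-fold (2.86 to 3.72), while YAP1 stood at 285 and 286 CPM. Among targets, CCN2 and AMIGO2 rose 3.38-fold (3.26 to 3.504) and 4.08-fold (3.95 to 4.22), ANKRD1 stood at 50.2 and 77.1 CPM with a ratio of 1.54 (1.43 to 1.66), CCN1 had 1.09 (1.07 to 1.12), and F3 fell. PTPN14, an inhibitor of YAP, rose 2.102-fold (2.005 to 2.204) and AMOT, another, fell 2.39-fold (2.04 to 2.82).

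The promoters of CCN2 and ANKRD1 are shown because these targets of TEAD, the DNA-binding partner of YAP and TAZ, hold several TEAD motifs close to their start and yet differed in ratio. Each line gives the 250 bases before the annotated start, 5′ to 3′ on the gene's strand, from RefSeq (GRCh38.p14), with GGAATG, on either strand, in capitals. The stretch before CCN2 is chr6:131951373-131951622 and that before ANKRD1 is chr10:90921088-90921337, both on the minus strand. The motif occurs 3 times before CCN2, its first letter 95 to 169 bases from the start, and 2 times before ANKRD1, at 128 to 220 bases.
CCN2: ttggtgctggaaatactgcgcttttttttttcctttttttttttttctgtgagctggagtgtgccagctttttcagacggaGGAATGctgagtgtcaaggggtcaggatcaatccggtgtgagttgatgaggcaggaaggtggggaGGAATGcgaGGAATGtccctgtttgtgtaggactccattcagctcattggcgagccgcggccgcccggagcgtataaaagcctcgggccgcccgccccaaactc
ANKRD1: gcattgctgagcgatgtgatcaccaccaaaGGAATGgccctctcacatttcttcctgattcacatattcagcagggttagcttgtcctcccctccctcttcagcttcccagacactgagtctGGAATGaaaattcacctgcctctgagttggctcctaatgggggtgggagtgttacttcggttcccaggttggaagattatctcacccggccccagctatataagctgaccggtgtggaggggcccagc

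IL11 and F3 are shown for AP-1, because both hold the motif TGANTCA (in capitals, either strand) and moved in opposite directions. The stretch before IL11 is chr19:55370464-55370713 and that before F3 is chr1:94541760-94542009, both on the minus strand. The match starts 96 bases before IL11, and the 2 matches before F3 start at 210 and 223 bases.
IL11: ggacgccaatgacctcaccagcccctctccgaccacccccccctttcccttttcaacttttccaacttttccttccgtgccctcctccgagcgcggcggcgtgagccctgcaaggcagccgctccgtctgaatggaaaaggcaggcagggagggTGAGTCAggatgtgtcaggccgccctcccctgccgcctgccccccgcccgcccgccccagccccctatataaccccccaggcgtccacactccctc
F3: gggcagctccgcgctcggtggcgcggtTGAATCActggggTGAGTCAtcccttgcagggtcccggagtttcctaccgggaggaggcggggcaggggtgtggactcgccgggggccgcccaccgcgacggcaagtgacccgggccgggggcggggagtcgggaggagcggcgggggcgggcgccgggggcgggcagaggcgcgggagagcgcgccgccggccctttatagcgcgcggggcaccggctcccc

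Over promoters of 300 bases (250 before to 50 after the start), 492 genes that rose, 397 that fell and 10015 that were not called could be matched by symbol to the RefSeq table. The AP-1 motif TGANTCA was in 9.55% of promoters of genes that rose, 8.06% of those that fell, 4.34% of those not called and 7.76% of all 27305 promoters. The SMAD-binding box CAGACA was in 19.1%, 15.9%, 11.9% and 16.8%. Both motifs were thus more frequent in called genes of either direction than in genes not called, and close to their frequency in all promoters. The median GC content of these promoters was 64.7% (rose), 63.7% (fell), 65.3% (not called) and 58.3% (all), and its part in the shares was not tested. The TEAD motif GGAATG was in 11.6%, 12.6%, 10.85% and 14.05%, and TGATGNAA, the composite site of ATF4, in 3.05%, 1.76%, 1.56% and 3.67%. The palindromic SMAD element GTCTAGAC was in 0 of the 492 and 1 of the 397. It was rare everywhere, in 0.13% of promoters not called and 0.20% of all promoters, so these counts show no difference. The cAMP response element TGACGTCA was in 3.86%, 3.02%, 3.225% and 1.98%. Both strands were searched, and none of these motifs contains another. A match is a description of these letters and not a bound site.

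Notch genes had 4 of 22 higher and 0 lower (median 0.34). JAG1, a membrane ligand of Notch, lies at chr20:10637684-10673999 (minus strand), had 524 and 7897 counts and rose from 21.9 to 358 CPM, or 16.3-fold (14.9 to 17.8). The Notch effector genes HES1 and HEY1 rose 7.49-fold (6.51 to 8.64) and 2.88-fold (1.65 to 5.27). The receptor genes NOTCH2 and NOTCH1 stood at 626 and 842 CPM and 41.5 and 46.5 CPM. In the Wnt list 4 of 32 rose and 3 fell (median 0.04). The non-canonical ligand genes WNT5A and WNT5B rose 2.53-fold (2.35 to 2.71) and 2.48-fold (2.26 to 2.74), and the receptor gene FZD8 2.52-fold (2.296 to 2.76). DKK1, a secreted antagonist of canonical Wnt signalling, fell from 613 to 157 CPM, or 3.91-fold (3.77 to 4.06), and LGR5 fell from 24 to 4 counts. The antagonists SFRP1 and DKK3 stood at 621 and 393 CPM and 288 and 155 CPM, ratios of 0.633 and 0.538.

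PDGF, VEGF and angiopoietin genes had 8 of 23 higher and 3 lower (median 0.60). The ligand PDGFB rose 4.48-fold (3.91 to 5.15) and the receptors PDGFRB 3.88-fold (3.59 to 4.19) and PDGFRA 4.16-fold (2.23 to 8.35), the last from 13 to 50 counts. In stellate cells PDGF is the classical mitogen. NRP2, a co-receptor for VEGF-C and semaphorins, rose from 48.7 to 274 CPM, or 5.62-fold (5.28 to 5.99), whereas NRP1 stood at 125 and 80.6 CPM. The vasoconstrictor endothelin-1 (EDN1) rose from 9.67 to 40.2 CPM, or 4.15-fold (3.59 to 4.82), and its receptor EDNRA 2.301-fold (1.61 to 3.33). The vasodilator peptides moved the other way, with adrenomedullin (ADM) falling from 41.6 to 6.34 CPM, or 6.56-fold (5.49 to 7.88), and apelin (APLN) 3.305-fold (2.62 to 4.200). ANGPTL4, a lipase inhibitor, rose 9.33-fold (6.25 to 14.5) and ANGPTL2 3.02-fold (2.74 to 3.34). VEGFA stood at 25.8 and 39.1 CPM. Of 16 endothelial markers, 6 had 0 counts in both libraries and 1, ROBO4, rose (2.66-fold (2.03 to 3.52)). Their summed level was 275 and 394 CPM, most of it from FLT1 (115 and 216 CPM) and TIE1 (143 and 154 CPM), while CDH5 had 13 and 2 and PECAM1 18 and 22 counts.

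Other growth factor families changed less evenly. In the FGF, HGF, KIT and neurotrophin list 1 of 19 rose and 4 fell (median -0.05): FGF1 fell 3.77-fold (3.37 to 4.22), BDNF 3.82-fold (3.24 to 4.52), KITLG (stem cell factor) 2.23-fold (1.94 to 2.57) and its receptor KIT from 57 to 16 counts. FGF2 stood at 194 and 265 CPM. EGF family genes had 3 of 12 higher and 3 lower, with amphiregulin (AREG) down 3.32-fold and the ERBB inhibitor LRIG1 up 2.24-fold (2.08 to 2.41). In the IGF axis 2 of 17 rose and 1 fell. IGF2 rose 2.702-fold (2.55 to 2.86), although 73.7% of its exon bases are shared with another gene, and the insulin receptor substrate IRS1 fell from 175 to 78.3 CPM, or 2.23-fold (2.11 to 2.36). IGF1R stood at 104 and 194 CPM.

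Semaphorins, ephrins, netrins and slits, the guidance cues, had 6 of 40 higher and 7 lower (median 0.19). SEMA5A rose from 14.1 to 109 CPM, or 7.71-fold (6.87 to 8.66), the plexin receptor gene PLXND1 rose 3.13-fold (2.88 to 3.39), and the netrin receptor genes UNC5B and UNC5C rose 8.94-fold (5.54 to 15.2) and 2.52-fold (1.97 to 3.25). The class 3 semaphorins went down: SEMA3B fell from 45.6 to 10.01 CPM, or 4.56-fold (3.94 to 5.29), SEMA3D 2.27-fold, SEMA3E 3.54-fold and SEMA3F 2.02-fold. SEMA3C, of the same class, stood at 79.7 and 82.9 CPM. Netrin-4 (NTN4) fell from 118 to 45.9 CPM, or 2.57-fold (2.395 to 2.77).

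The IL-6 family and STAT3 list had 4 of 20 higher and 1 lower (median 0.10). IL11, a profibrotic cytokine of this family, rose from 65.7 to 319 CPM, or 4.85-fold (4.59 to 5.13). LIF rose 6.61-fold (5.93 to 7.39) and IL6 3.48-fold (2.85 to 4.27). IL6R, the receptor for IL-6, fell from 56 to 2 counts, a ratio of 25.9-fold (6.84 to 219) in that direction. The shared receptor gene IL6ST stood at 397 and 511 CPM, STAT3 at 152 and 166 CPM and the feedback gene SOCS3 at 42.4 and 42.98 CPM. SOCS6, another member of the SOCS family outside the list, fell from 43.8 to 9.92 CPM, or 4.42-fold (3.81 to 5.13).

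Chemokines and NF-κB targets had 6 of 33 higher and 3 lower (median 0.21). TNFSF15, a TNF family ligand, rose from 17 to 518 counts, or 32.96-fold (20.4 to 57.01). IL1B rose from 30.7 to 96.5 CPM, or 3.14-fold (2.89 to 3.42), TRAF1 3.09-fold (2.73 to 3.501) and RELB 2.19-fold (1.93 to 2.49). ICAM1 and CCL5 rose 2.003-fold and 2.08-fold, calls lost under total counts, while VCAM1 fell 3.43-fold (1.88 to 6.71) and CXCL2 2.31-fold (1.39 to 3.98). TNFRSF11B (osteoprotegerin), a decoy receptor of this superfamily, rose from 1.801 to 19.5 CPM, or 10.8-fold (7.91 to 15.2). Beside these, 4 of 21 macrophage and leukocyte markers reached 1 CPM. CSF1R rose from 24 to 118 counts, CD14 fell from 157 to 67, and CD68 fell 2.09-fold but shares 81.7% of its exon bases and lost the call when summed. The defining marker PTPRC (CD45) had 3 and 0 counts.

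Among 42 interferon-stimulated genes 6 rose (14.3%, against 5.24% of all genes) and 1 fell (2.38%, against 4.36%). Of the 42, 37 had a log2 ratio above 0 (median 0.36), while 48.6% of all genes did. XAF1 rose 4.54-fold (3.33 to 6.29), RSAD2 (viperin) 2.21-fold (2.04 to 2.38) and IFI44 2.18-fold (1.93 to 2.47), and the sensors RIGI and IFIH1 rose 2.09-fold and 2.096-fold. The calls of RIGI, IFIH1 and IFIT2 were lost under total counts. The gene that fell was IFITM1, and its log2 ratio went from -2.93 to -0.26, with the call lost, when overlapping genes were summed. ISG15 stood at 69.5 and 100.5 CPM. In the MHC class I list 2 of 14 rose and 1 fell. B2M, the invariant light chain, fell from 284 to 118 CPM, or 2.41-fold (2.299 to 2.52). The heavy chain gene HLA-B stood at 102 and 145 CPM, under the 2-fold rule. TAP2 rose 2.04-fold, lost under total counts, and HLA-C rose 2.27-fold at 50 and 105 counts, lost when summed with an overlapping gene.

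Of the 37 measured genes of cholesterol synthesis and sterol regulation, 15 rose (40.5%, against 5.24% of all genes) and 0 fell. Of the 37, 33 had a log2 ratio above 0, while 48.6% of all genes did (median 0.80 against -0.01 for all genes). The pathway runs from acetyl-CoA through mevalonate and squalene to cholesterol, and its genes share the factor SREBP2, which is active when membrane sterol is low. At the entry, HMGCS1 rose from 170.4 to 639 CPM, or 3.75-fold (3.62 to 3.88). Of the mevalonate and isoprenoid steps, MVD, IDI1 and FDPS rose 2.09-fold, 2.31-fold and 2.67-fold, and MVK stood at 45.1 and 64.4 CPM. The calls of MVD and HSD17B7, another of the genes that rose, were lost under total counts. Of the sterol steps, SQLE rose 3.003-fold (2.85 to 3.16), MSMO1 3.55-fold (3.38 to 3.74) and DHCR7 2.803-fold (2.68 to 2.93). CYP51A1 rose 2.57-fold with 79.4% of its exon bases shared.

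Among regulators of the pathway, INSIG1, which holds SREBP in the endoplasmic reticulum, rose from 43 to 204 CPM, or 4.74-fold (4.43 to 5.08). SREBF2, the gene of SREBP2 itself, stood at 187 and 326 CPM, a ratio of 1.74 (1.68 to 1.81), under the 2-fold rule. ABCA1, the cholesterol exporter that oxysterol-activated LXR induces, rose from 42.6 to 118 CPM, or 2.76-fold (2.57 to 2.97). The export gene ABCA1 and synthesis genes such as HMGCS1 were thus higher in the same library. The sterol regulatory element TCACNCCAC was found in 1 of 29 promoters of the list (3.45%, SREBF2), and in 1.15% of all promoters.

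**Figure D4:**
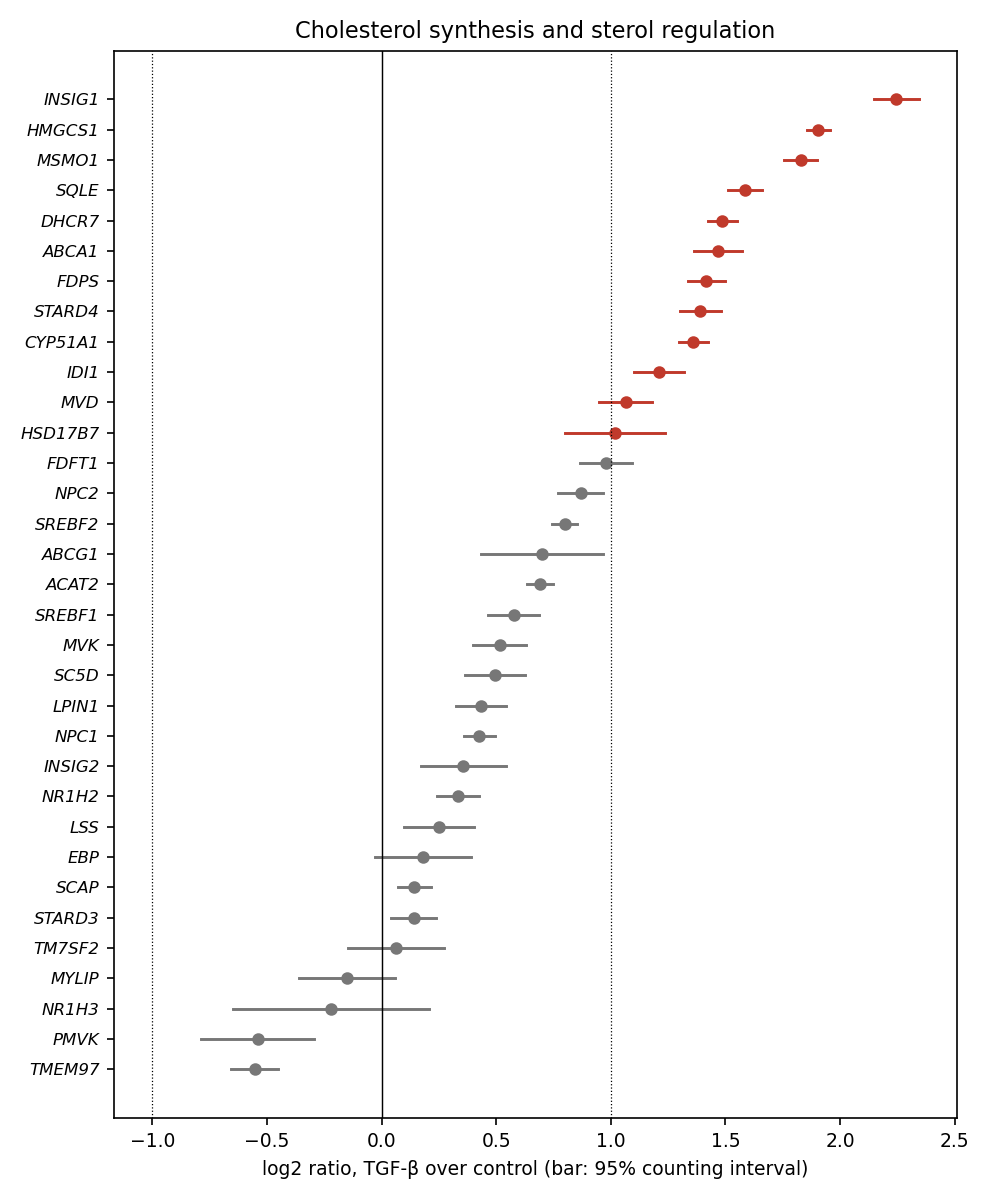
Of the 37 measured genes of the list, 33 are drawn, each as a point at its log2 ratio of TGF-β over control, with a bar for the 95% counting interval. The dotted lines mark 2-fold, the 12 drawn in red rose, and INSIG1, HMGCS1 and MSMO1 lie farthest to the right.

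Fatty acid and lipase genes had 6 of 41 higher and 2 lower (median 0.21). The desaturase gene SCD rose from 555 to 2173 CPM, or 3.91-fold (3.84 to 3.99), and the fatty acid synthase gene FASN from 279 to 845 CPM, or 3.03-fold (2.95 to 3.12). ACLY, which supplies their acetyl-CoA, stood at 557 and 951 CPM. FADS2 rose 2.47-fold (2.39 to 2.56) and CPT1B 2.097-fold, and both lost the call when summed with overlapping genes. Endothelial lipase (LIPG) rose from 63 to 1606 counts, or 27.6-fold (21.4 to 36.1), and lipoprotein lipase (LPL) from 23 to 67. PLIN2, the coat of lipid droplets, fell from 17.3 to 8.11 CPM, or 2.13-fold (1.79 to 2.56).

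Glycolysis and hypoxia genes had a median log2 ratio of -0.18, against -0.01 for all genes and -0.13 for the housekeeping list. Of 39 measured, 0 rose (against 5.24% of all genes) and 2 fell (5.13%, near the 4.36% of all genes). ADM and the mitophagy gene BNIP3 (2.401-fold (2.24 to 2.58)) fell. GAPDH stood at 5372 and 4070 CPM, PKM at 1860 and 1270 CPM and TPI1 at 936 and 561 CPM, with ratios of 0.758, 0.683 and 0.599, and the summed level of the list was 0.801 times that of the control. HIF1A stood at 458 and 528 CPM. LDHA had 92 and 57 counts beside LDHB at 619.7 and 569 CPM, a level whose reason was not tested.

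Genes of vitamin A handling and the quiescent stellate cell had 2 of 24 higher and 3 lower (median -0.36). PPARG, a nuclear receptor of the fat-storing state, fell from 136 to 31 counts, or 4.06-fold (2.73 to 6.201), and reelin (RELN) from 37 to 11. Against this direction, STRA6, a retinol uptake receptor, rose 4.56-fold (3.23 to 6.58), and HHIP, a hedgehog antagonist, 6.67-fold (4.65 to 9.83). Nuclear receptors had 1 of 28 higher (3.57%, against 5.24% of all genes) and 4 lower (14.3%, against 4.36%). The gene that rose was the vitamin D receptor VDR, from 28.6 to 101 CPM, or 3.53-fold (3.24 to 3.85). NR2F2 (COUP-TFII) fell from 867 to 355 CPM, or 2.44-fold (2.38 to 2.504) and the thyroid hormone receptor THRB 3.17-fold (2.13 to 4.82). NR3C1, the glucocorticoid receptor, stood at 144 and 161 CPM.

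In the redox list 1 of 33 rose (3.03%, against 5.24% of all genes) and 0 fell (against 4.36%), with a median of -0.16. That gene was NOX4, an NADPH oxidase tied to TGF-β signalling, at 1 and 56 counts, a ratio of 60.6 (10.4 to 2434). Metallothioneins MT2A and MT1X rose 2.21-fold (2.17 to 2.24) and 2.56-fold (2.36 to 2.79), while the 21 other measured genes of the heat shock list were not called. The ATF4 amino acid response had 0 of 37 called in either direction (median -0.17), and endoplasmic reticulum folding genes 0 of 39 (median 0.15). Of all genes, 9.6% were called in either direction. ATF4 stood at 61.01 and 73.5 CPM, PHGDH, which starts serine synthesis, at 231 and 233 CPM, and HSPA5 (BiP) at 758 and 739 CPM. The composite ATF4 site was in 24.1% of the 29 promoters of the ATF4 list.

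Mitosis and replication genes lay slightly below the control by their medians, near the housekeeping list. None met the 2-fold rule, against 9.6% of all genes called in either direction. Of 38 mitosis genes 6 had a log2 ratio above 0 (median -0.18), and of 39 replication genes 10 did (median -0.12). Over all genes 48.6% did (median -0.01), and of the 26 housekeeping genes 8 did (median -0.13). MKI67 stood at 630.1 and 683 CPM, TOP2A at 1068 and 994 CPM and PCNA at 369 and 303 CPM. Among cyclins and CDK inhibitors, cyclin D1 (CCND1) rose from 514 to 1280 CPM, or 2.49-fold (2.44 to 2.54), and CDKN2C (p18) fell from 129.8 to 46.2 CPM, or 2.81-fold (2.61 to 3.02). CDKN1A (p21) stood at 86.5 and 108 CPM. The stress-inducible gene GADD45B rose 2.47-fold (2.29 to 2.66). MDM4, a relative of the ubiquitin ligase gene MDM2, had 860 and 82 counts and fell 9.697-fold (7.72 to 12.3), while MDM2 itself stood at 64.8 and 69.4 CPM. HEXIM1, which inhibits the elongation factor P-TEFb, stood at 152 and 166 CPM. Mitochondrial mRNAs had 0 of 13 called and a summed level of 13879 and 14731 CPM, and housekeeping genes 1 of 26 called, B2M (median -0.13).

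**Figure D5:**
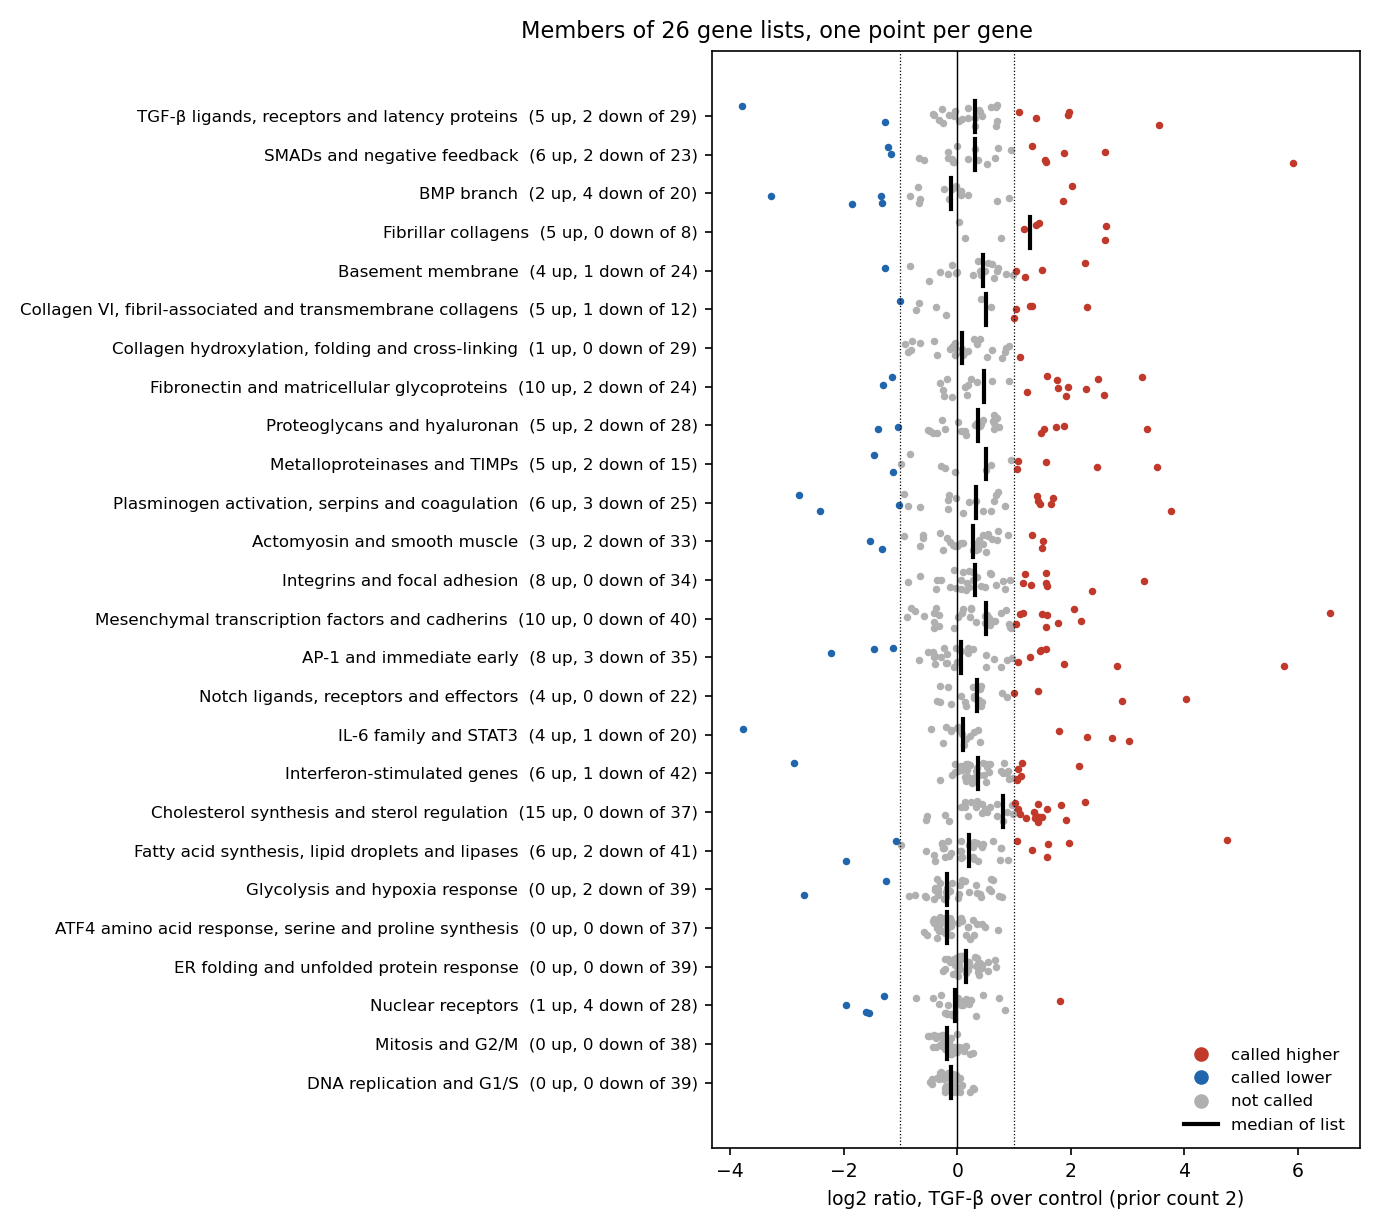
Each point is a measured gene of 26 lists at its log2 ratio of TGF-β over control (2 counts added), red where it rose, blue where it fell and grey where not called, and the black bar is the list's median. Fibrillar collagens (1.28) and cholesterol genes (0.80) have the highest medians shown. Lists such as mitosis and ATF4 have no called gene, against 9.6% of all genes called in either direction.

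Among the 30 largest rises outside these lists, SLC46A3, a lysosomal transporter, rose from 15.03 to 127 CPM, or 8.46-fold (7.58 to 9.47). FBXO34, an F-box protein, rose 9.99-fold (8.53 to 11.8), the protocadherin PCDH1 8.83-fold (7.11 to 11.1) and the exchange factor PLEKHG4B 8.46-fold (6.89 to 10.5). Podocalyxin (PODXL), an anti-adhesive sialomucin, rose from 303 to 1588 CPM, or 5.24-fold (5.11 to 5.38). SH3PXD2A (TKS5), a scaffold of matrix-degrading podosomes, rose from 61.8 to 335 CPM, or 5.42-fold (5.12 to 5.73), and SEPTIN11, a cytoskeletal GTPase, from 114 to 678 CPM, or 5.97-fold (5.73 to 6.22). MSRB3, a methionine sulfoxide reductase, rose 6.16-fold (5.48 to 6.95). MYO10, the myosin of filopodia, rose from 253 to 1091 CPM, or 4.31-fold (4.19 to 4.44), and was named for its gain of 838 CPM after its value was seen.

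Among the 30 largest falls outside the lists, LRRC8E, a subunit of volume-regulated anion channels, fell from 20.3 to 1.99 CPM, or 10.2-fold (7.48 to 14.2). KCNIP3, a calcium-binding regulator of potassium channels, fell 8.64-fold (6.37 to 11.98), and MYPN (myopalladin), a sarcomere protein, 6.03-fold (5.05 to 7.25). The RNA-binding protein RBM15 fell 6.34-fold (5.03 to 8.08), the Mediator subunit MED29 from 84.3 to 15.4 CPM, or 5.47-fold (4.88 to 6.16), and the zinc finger gene ZKSCAN1 3.24-fold. Among ubiquitin ligases, ITCH fell from 51.4 to 10.8 CPM, or 4.75-fold (4.13 to 5.48), and RNF185 4.07-fold (3.54 to 4.68). CAVIN2, a caveolar coat protein, fell from 85.7 to 19.4 CPM, or 4.42-fold (3.98 to 4.92), while CAVIN1 and CAV1 stood at 2575 and 1983 CPM and 715 and 376 CPM. The kinase gene PLK2 fell from 440.3 to 125 CPM, or 3.53-fold (3.39 to 3.69), and the transcriptional coregulator CITED2, which competes with HIF1A for p300, from 109.5 to 31.6 CPM, or 3.47-fold (3.19 to 3.78). RIN1 and RASSF8, both with Ras-association domains, fell 3.28-fold and 3.25-fold.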

How the data were processed

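RNA from LX-2 cells was sequenced in 4 libraries, 1 per group, and 2 are compared here. The values deposited per gene are raw, unscaled counts, and the deposited FPKM values were made by the authors with StringTie 1.3.0, per the series' design text. The submitters' processing notes name TopHat2 2.0.6, CASAVA 1.8 and GRCh38. The kit was stranded, but the counting program, annotation release and strandedness used were not given in the sources used here, so antisense and overlapping genes are uncertain. In 10250 genes FPKM followed count over library total and length to within 0.00043%.

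Counts were scaled by TMM factors of 1.06 (control) and 1.01 (TGF-β), computed over the 4 libraries with edgeR 4.0.16 in R 4.3.3. CPM, ratios, intervals and log2 ratios (2 counts added) were computed here from the deposited counts in Python 3.11.15 (numpy 2.4.6, scipy 1.17.1, pandas 2.3.3, matplotlib 3.10.9). A library with 0 counts was set to 3. Rules were tested on simulated data. Gene types, positions and shared exons were taken from GENCODE 29 (14844 of the 15356 genes), and promoters from RefSeq.

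The comparison, its members and the 54 gene lists were chosen with earlier results of these data known. Named genes are the 30 largest rises and 30 largest falls by the interval bound closest to 1 (protein-coding, at least 10 CPM, no shared exons), up to 6 called and 3 abundant uncalled members of each list, and genes fixed by name. Further members are named as examples after their values were seen. Alternatives were TMM over the 2 libraries, total counts, DESeq2 1.42.0 size factors, other filters and folds, 0.5 counts added, means, protein-coding genes alone and summed overlapping genes. Some genes that the rule names are not reported here, although list counts include them.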

Additional observations from a re-analysis of the deposited data

How the results depend on the processing

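The counts of 805 genes that rose and 669 that fell became 488 and 317 with genes under 5 CPM in both libraries left out, where fewer genes were tested, 1576 and 1413 at a 1.5-fold rule, and 359 and 245 at a 3-fold rule. Total counts gave 725 and 775, so that 48.3% of the called genes had risen in place of 54.6%, and this scaling moved every log2 ratio by -0.07. TMM over the 2 libraries, DESeq2 size factors, no filter (1171 and 970 of 28057 genes), summed overlapping genes and protein-coding genes alone stayed within 1.5 times. The medians of 53 lists moved by less than 1.5-fold under 5 alternatives. The medians of 10 lists changed sign. Under total counts these were AP-1 (0.07 to -0.003), Wnt (0.04 to -0.03), the MYC network (0.04 to -0.03), mitochondrial mRNAs (0.06 to -0.01) and abundant long non-coding RNAs (0.03 to -0.04), and the MYC, Wnt and non-coding lists also changed sign with means (-0.02, -0.04 and -0.05). With means, the redox list went from -0.16 to 0.04, heat shock from -0.07 to 0.01, D cyclins from -0.02 to 0.06, and macrophage markers from -0.53 to 0.04 (0.05 when summed). At 5 CPM, nuclear receptors went from -0.03 to 0.05. Of 283 named genes, 20 lost the call under total counts and 7 when overlapping genes were summed, among which the log2 ratio of CD68 went from -1.06 to 0.11. No paired analysis was possible because each group has 1 library. Depth limits the genes with few counts, such as NOX4, FOXS1 and IL6R, whose intervals are wide.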

Other observations

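Long non-coding RNAs were called more often than protein-coding genes. Of 1250 measured, 129 rose (10.3%) and 106 fell (8.48%), against 4.64% and 3.74% of 12679 protein-coding genes. They also lie at lower levels, where more genes are called, and the part of level in this difference was not tested. LINC02067 went from 0 to 148 counts, a ratio of 53.4 with the control set to 3 counts, and its interval started at 42.9. NKILA, named for its interaction with NF-κB, rose 9.68-fold (6.15 to 16.01), and LINC01711 rose from 24 to 118 counts. Among those without shared exons and with at least 5 CPM in either library, AGAP2-AS1 had the largest fall, from 505 to 23 counts, or 20.3-fold (13.4 to 32.3). HIF1A-AS3 fell 3.41-fold (2.88 to 4.07). INSIG1-DT, which starts beside the sterol gene INSIG1, rose 2.29-fold (1.703 to 3.11), from 67 to 142 counts. The strandedness of the counting was not given in the sources used here, so antisense RNAs are uncertain.

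Families were formed by symbol from the protein-coding genes, of which 4.64% rose and 3.74% fell. Genes with the stem COL (collagens) had 12 of 27 higher (44.4%) and 2 lower (7.41%). Those with the stem KRT (keratins and 1 antisense RNA) had 6 of 15 higher (40%) and 1 lower (6.67%). Genes with the stem SEMA had 2 of 15 higher (13.3%) and 5 lower (33.3%). The large families lay near the shares of all protein-coding genes. Of 210 solute carriers (SLC), 10 were higher (4.76%) and 10 lower (4.76%), and of 430 zinc finger genes (ZNF), 20 were higher (4.65%) and 23 lower (5.35%). These families were ranked by share called, so their order is a description.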
